A study of Mus musculus with 48 samples.

Results

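The 10 genes Dusp6, Dusp4, Spry2, Spry4, Spred1, Spred2, Etv4, Etv5, Egr1 and Fos, all targets or feedback inhibitors of ERK signalling, were followed across 48 single mouse cells. They were chosen by name as textbook targets of the pathway and make up 10 of the 49671 genes in the data, 21943 of them counted in 1 cell or more. They came from the inner cell mass (ICM) of 3 mouse blastocysts collected at E3.75 (E stands for embryonic day), freed of trophectoderm by immunosurgery before dissociation. Each cell was sequenced by Smart-seq2, which amplifies full-length cDNA and tags no molecules. The embryos came from crosses of Pdgfra H2B-GFP reporter mice, in which a nuclear GFP cassette had been placed in the Pdgfra locus, with C57BL/6J x CBA/J first-generation hybrids, and no embryo was treated. All 3 embryos used were Pdgfra H2B-GFP/+, chosen for a salt-and-pepper spread of GFP-positive cells in the ICM. The sample titles call the cells WT. The labels do not tell which embryo a cell came from, so the 48 cells are 1 sample without replicates and no test was made. SDs describe the spread between cells.

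The inner cell mass gives rise to the epiblast and the primitive endoderm, and cells on their way to each are called pEPI and pPrE. Epiblast precursors secrete FGF4, which acts through FGFR1 and FGFR2 on RAS, RAF, MEK and ERK, and ERK activity drives primitive endoderm fate and turns down Nanog. Activated ERK also switches on genes that restrain it: the dual-specificity phosphatases DUSP6 in the cytoplasm and DUSP4 in the nucleus remove phosphate from MAP kinases, and the Sprouty and Spred proteins act upstream on RAS and RAF. ETV4 and ETV5 are ETS transcription factors of the PEA3 group, while EGR1 and FOS are immediate early transcription factors that are also induced when cells are dissociated. Capicua is a repressor that ERK removes from target genes such as the PEA3 factors.

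The cells were split as in the dendrogram of the study, read by eye, into 25 pEPI and 23 pPrE cells. Since that dendrogram rests on the expression of the very cells compared, differences between its branches are a description and no test. The lineage markers moved with the split: 5 of 7 pEPI markers were at least 2-fold higher in pEPI cells, and all 10 of the pPrE markers with a mean of at least 1 FPKM were at least 2-fold higher in pPrE cells. All levels below are in FPKM, counts scaled by exon length and library size, so they can be compared between genes. Total counts per cell lay between 1718970 and 7342785 (median 4017082), and 9202 to 11547 genes were detected per cell. Counts on 4 Y-linked genes were at least 242 in 29 cells (17 pEPI and 12 pPrE) and at most 1 in the other 19 (8 pEPI and 11 pPrE). The wells fell into 6 strips of 8, named by letter, whose relation to the embryos is not given in the sources used here.

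Promoter windows from RefSeq (GRCm38.p6), running from 250 bases before to 50 bases after a gene's start, were matched and read for 6 of the 10 members (7 windows, as Etv5 has a pair). They were searched on both strands for the Capicua octamer (TCAATGAA, TCAATGGA, TGAATGAA or TGAATGGA), the ETS core (CGGAAG), the cyclic AMP response element (TGACGTCA), the AP-1 site (TGACTCA or TGAGTCA) and the CArG box, any number of matches counting. The 4 windows below are shown because they hold letters that Capicua and ETS factors, readers of ERK activity, are known to bind, and because their genes differed widely in level. Dusp6 was at least 2-fold higher in pEPI cells and Spred1 in pPrE cells, while Spry2 and Fos lay within 2-fold. The window of Spred2, which also held an ETS core, is not shown. Letters in capitals are the matches. They read as the reverse complement where the match lies on the other strand, and no matches overlapped.
Dusp6, chr10:99262981-99263280, plus strand: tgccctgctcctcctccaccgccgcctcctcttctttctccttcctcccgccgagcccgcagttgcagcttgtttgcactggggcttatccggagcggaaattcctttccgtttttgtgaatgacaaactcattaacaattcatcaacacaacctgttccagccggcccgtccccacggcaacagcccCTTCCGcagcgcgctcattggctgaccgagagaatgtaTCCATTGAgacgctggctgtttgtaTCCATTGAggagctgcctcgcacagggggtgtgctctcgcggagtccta
Spry2, chr14:105896770-105897069, minus strand: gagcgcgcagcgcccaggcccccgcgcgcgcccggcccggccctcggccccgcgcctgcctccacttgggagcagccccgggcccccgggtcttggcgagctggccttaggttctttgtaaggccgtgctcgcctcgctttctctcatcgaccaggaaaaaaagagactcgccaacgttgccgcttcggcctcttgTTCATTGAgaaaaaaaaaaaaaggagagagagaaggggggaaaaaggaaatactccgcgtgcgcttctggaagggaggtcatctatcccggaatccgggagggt
Spred1, chr2:117120821-117121120, plus strand: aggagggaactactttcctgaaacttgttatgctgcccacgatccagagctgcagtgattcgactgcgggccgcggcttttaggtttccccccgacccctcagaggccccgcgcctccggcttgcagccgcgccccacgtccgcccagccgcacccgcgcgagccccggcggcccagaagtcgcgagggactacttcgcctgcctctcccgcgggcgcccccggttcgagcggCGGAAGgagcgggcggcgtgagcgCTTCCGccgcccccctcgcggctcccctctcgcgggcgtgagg
Fos, chr12:85473640-85473939, plus strand: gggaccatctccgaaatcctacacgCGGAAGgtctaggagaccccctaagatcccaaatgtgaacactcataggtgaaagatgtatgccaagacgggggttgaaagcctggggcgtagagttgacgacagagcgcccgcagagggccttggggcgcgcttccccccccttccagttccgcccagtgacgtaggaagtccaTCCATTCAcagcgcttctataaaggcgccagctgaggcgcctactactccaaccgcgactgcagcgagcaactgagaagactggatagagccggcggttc

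The Capicua octamer was found in the windows of Dusp6, Spry2 and Fos. In Dusp6 it occurred in 2 copies, both as TCCATTGA, at -24 to -17 and at 2 to 9 from the start. In Spry2 it stood as TTCATTGA at -54 to -47, and in Fos as TCCATTCA at -50 to -43. Of all 32851 promoter windows, 3.84% held an octamer. The ETS core was found in Dusp6 (-62 to -57), Spred1 (-17 to -12 and 8 to 13), Spred2 (-43 to -38) and Fos (-225 to -220), against 16.9% of all windows. None of the 7 windows held the cyclic AMP response element (1.79% of windows), the AP-1 site (5.2%) or the CArG box (1.63%) in the forms searched. Neither window of Etv5 matched any motif, which says only that these letters are not in these windows. Partial forms of a motif were not counted, and Dusp4, Spry4, Etv4 and Egr1 were not searched.

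By level, the members spanned more than 2 orders of magnitude. Spry2 was the highest with a mean of 245 FPKM over the 48 cells, followed by Fos (63.7), Etv5 (42.6), Egr1 (36), Dusp4 (18), Dusp6 (11.3), Spry4 (3.13), Spred2 (1.80), Spred1 (1.21) and Etv4 (0.745). Spry2 exceeded Fos in 45 of 48 cells, and this was the only step between neighbours in the order that was larger than the SD of each gene over cells. Spry2, Etv5 and Egr1 were detected in every cell, Fos in 46, Spred2 in 41, Dusp4 in 39, Dusp6 in 36, Spry4 in 31, Spred1 in 23 and Etv4 in 14. Each cell held counts of 5 to 10 members, with a median of 8.

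**Figure D1:**
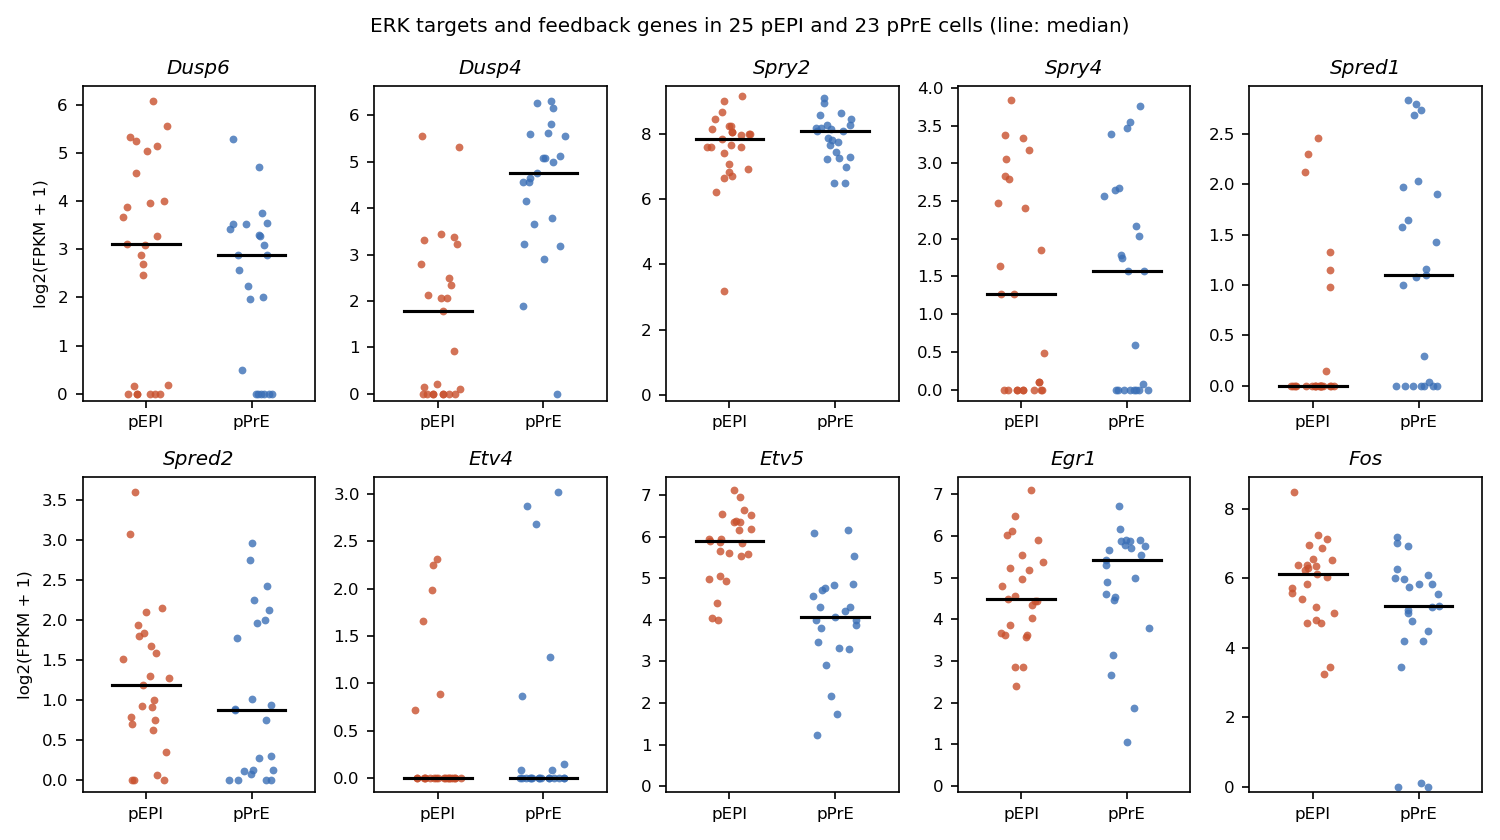
Level of each member in each cell, as log2(FPKM + 1), in 25 pEPI and 23 pPrE cells, with a line at the median and a separate vertical scale per gene. Dusp4 and Spred1 lay higher in pPrE cells and Etv5 in pEPI cells, and the branches overlapped for every member.

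Of the 9 members with a mean of at least 1 FPKM, 2 (Dusp4 and Spred1) were at least 2-fold higher in pPrE cells by the ratio of mean FPKM, where 6.2% of the 10880 genes at that level were. Another 2 (Etv5 and Dusp6) were at least 2-fold higher in pEPI cells, against 9.03% of all genes. The other 5 lay within 2-fold, and the median log2 ratio of pPrE over pEPI over the 9 members was 0.09, against 0.0 over all genes. Spred1 reached a mean of 1 FPKM only through its pPrE cells (1.84 FPKM, against 0.622 in pEPI cells). Its entry among the 9 and its call as higher in pPrE cells are thus not separate. Only for Dusp4 and Etv5 was the gap between the branch means larger than the SD of each branch, and for no member did it exceed the sum of both SDs. The members thus did not lie on 1 side of the split.

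Of the 2 phosphatases among the members, Dusp4 (chromosome 8, 34807297 to 34819894) had the wider gap. In the 25 pEPI cells it ran from 0 to 46 FPKM with a median of 2.44, and in the 23 pPrE cells from 0 to 78.4 with a median of 26.1. Of the pPrE cells 22 lay above the pEPI median and 6 above every pEPI cell, and Dusp4 was at 0 in 8 pEPI cells but in 1 pPrE cell. The means were 5.97 ± 11.5 (SD, n = 25 cells) and 31 ± 23 (SD, n = 23 cells), 5.19-fold higher in pPrE, a log2 ratio of 2.38 with a 95% counting interval of 2.30 to 2.45. Such an interval covers counting error alone, and since no molecule was tagged, reads are not independent molecules.

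Some cells that stood apart for Dusp4 also stood apart for lineage genes, and others did not. The pEPI cells in wells E5 and E7 held 46 and 38.7 FPKM of Dusp4. Among the 25 pEPI cells these were also the top pair for Gata6 (46.2 and 42.9 FPKM) and for Gata4 (39.8 and 52.7), transcription factors of the primitive endoderm, and ranked 24 and 22 for Nanog (56.6 and 74.0), the epiblast factor. Without both, the log2 ratio of Dusp4 was 3.46. The pPrE cell in which Dusp4 was at 0, in well A1, had the highest Nanog (308 FPKM) and the lowest Gata6 (2.80) of its branch. In contrast, the pPrE cell with the most Dusp4, in well F6 (78.4 FPKM), ranked 22 of 23 for Gata6. It ranked 9 for Sox17, another primitive endoderm factor, 8 for Gata4 and 15 for Nanog, so only Gata6 was out of line there. Wells F7 and D1, with 6.54 and 8.08 FPKM of Dusp4, ranked 3 and 5 for Gata6. For Sox17 they ranked 6 and 4, and for Gata4 15 and 17. Both high pEPI cells came from strip E, where the log2 ratio was -0.56 (mean 20.5 FPKM in pEPI and 13.9 in pPrE cells), while in the other 5 strips it was 2.43 to 4.84.

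Dusp6 (chromosome 10, 99263231 to 99267489) pointed the other way with a smaller gap. It ran from 0 to 66.8 FPKM with a median of 7.58 in pEPI cells, and from 0 to 37.8 with a median of 6.31 in pPrE cells. The branches overlapped almost throughout: 3 pEPI cells lay above every pPrE cell, and 6 cells of each branch were at 0. The means were 14.9 ± 17.9 (SD, n = 25) and 7.36 ± 8.90 (SD, n = 23), 2.03-fold higher in pEPI with a log2 ratio of -1.02 (-1.09 to -0.95). This call moved with single cells, since the log2 ratio was -0.79 without the pEPI cell in well E3 and -1.32 without the pPrE cell in well F7, and it was past 2-fold in 7 of 14 other settings. In strip F the direction was opposite (3.79 FPKM in pEPI and 12.3 in pPrE cells, log2 ratio 1.69). This rested mainly on well F7, as the pPrE cells in wells F7, F5, F2 and F6 held 37.8, 7.46, 3.74 and 0 FPKM. Well F7 alone held 31.8% of the counts of all 23 pPrE cells. Dusp6 was above Dusp4 in 17 of 25 pEPI cells, and Dusp4 was above Dusp6 in 18 of 23 pPrE cells.

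**Figure D2:**
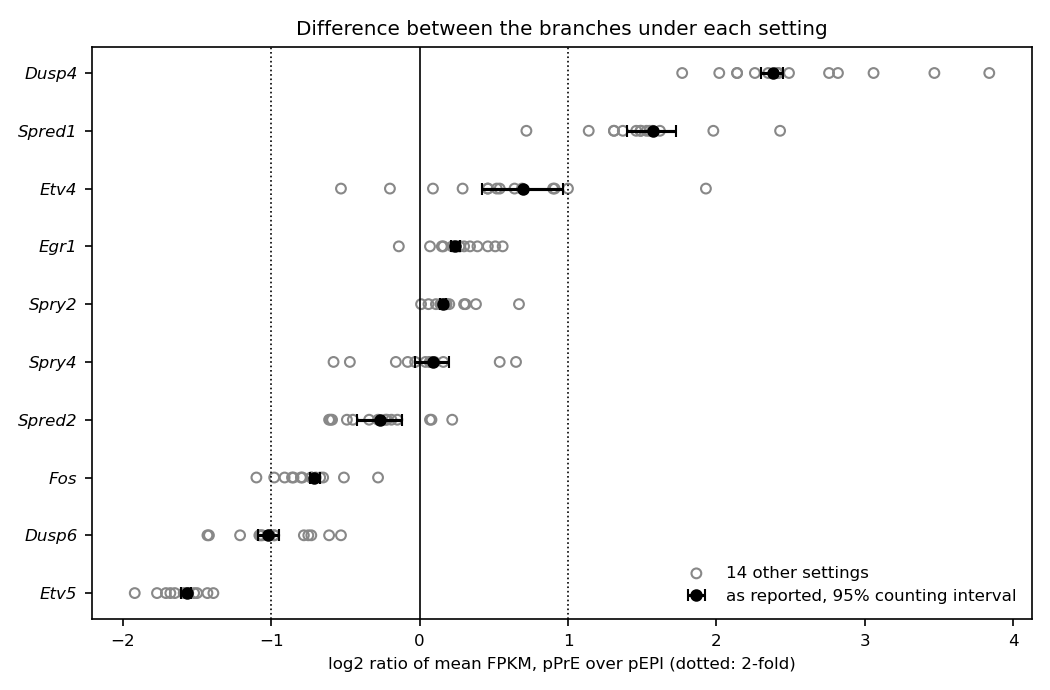
Log2 ratio of mean FPKM in pPrE over pEPI cells for each member, as reported with its 95% counting interval (black), and under 14 other settings of scaling, grouping and cells (open circles). Dusp4 and Etv5 stayed past 2-fold in all 14, while Spry4, Spred2, Etv4 and Egr1 had settings on both sides of 0.

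The means of the Sprouty genes differed by far less than the spread between cells. Spry2 (chromosome 14, 105891947 to 105896819) ran from 8.09 to 571 FPKM with a median of 226 in pEPI cells, and from 88.8 to 540 with a median of 268 in pPrE cells. The branches covered nearly the same range, with means of 232 ± 130 (SD, n = 25) and 259 ± 118 (SD, n = 23) and a log2 ratio of 0.16 (0.14 to 0.18). Spry4 (chromosome 18, 38586247 to 38601415) had means of 3.04 ± 3.87 in pEPI and 3.22 ± 3.95 FPKM in pPrE cells, was detected in 16 of 25 and 15 of 23, and had a log2 ratio of 0.09 (-0.03 to 0.20) whose sign held in 9 of 14 other settings. Spry2 was above Spry4 in 48 of 48 cells.

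The Spred genes were low. Spred1 (chromosome 2, 117121374 to 117182279) ran from 0 to 4.48 FPKM with a median of 0 in pEPI cells, and from 0 to 6.12 with a median of 1.15 in pPrE cells. It was detected in 7 of 25 pEPI cells (28%, Clopper-Pearson 95% interval 12.1% to 49.4%) and in 16 of 23 pPrE cells (69.6%, 47.1% to 86.8%), and 4 pPrE cells lay above every pEPI cell. Such binomial intervals take each cell as an independent draw and leave differences between embryos uncovered. The means were 0.622 ± 1.32 (SD, n = 25) and 1.84 ± 2.11 (SD, n = 23), 2.97-fold higher in pPrE with a log2 ratio of 1.57 (1.40 to 1.73). The pEPI signal lay in few cells, well B4 holding 38% of its counts. Within strips the log2 ratio was 3.67 in strip A, 0.58 in D, -0.10 in E and -0.63 in B, while strips C and F had a branch at 0. Spred2 (chromosome 11, 19924375 to 20024026) differed little, with 1.97 ± 2.49 in pEPI and 1.63 ± 2.02 FPKM in pPrE cells and a log2 ratio of -0.27 (-0.42 to -0.12). It was above Spred1 in 19 of 25 pEPI cells, while in pPrE cells 11 had more Spred2 and 10 more Spred1.

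Of the ETS factors, Etv5 (chromosome 16, 22381309 to 22439719) was higher in pEPI cells in every strip and setting run. It ran from 15.1 to 139 FPKM with a median of 58.5 in pEPI cells, and from 1.34 to 70.9 with a median of 15.8 in pPrE cells. Of the pPrE cells 11 lay below every pEPI cell, 9 pEPI cells lay above every pPrE cell, and the pPrE cell was the higher in 10.6% of all pairs of a pEPI and a pPrE cell. The means were 62.4 ± 31.6 (SD, n = 25) and 21 ± 18.1 (SD, n = 23), a log2 ratio of -1.57 (-1.61 to -1.54). The ratio was negative in all 6 strips (-2.43 to -0.63), in cells with Y-linked counts (-1.71) and in those without (-1.68). It was nearest 0 in strip F, which held the pPrE cells in wells F7 and F5 with 70.9 and 66.6 FPKM. Etv4 (chromosome 11, 101769742 to 101785371) was near the detection limit, with counts in 6 of the 25 pEPI and 8 of the 23 pPrE cells and means of 0.574 ± 1.23 and 0.930 ± 2.17 FPKM.

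Etv5 and Dusp4, the only members whose gap between the branch means exceeded the SD of each branch, were set against each other cell by cell. As they were picked by that gap, this describes the same split again. Etv5 was above Dusp4 in 24 of 25 pEPI cells. In pPrE cells Dusp4 was above Etv5 in 15 of 23 and Etv5 above Dusp4 in 8.

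Of the immediate early genes, Egr1 (chromosome 18, 34859823 to 34864984) ran from 4.26 to 136 FPKM with a median of 21.5 in pEPI cells, and from 1.07 to 104 with a median of 42.2 in pPrE cells. Its medians lay further apart than its means, which were 33.1 ± 30.6 (SD, n = 25) and 39.1 ± 25.3 (SD, n = 23) with a log2 ratio of 0.24 (0.21 to 0.27). Fos (chromosome 12, 85473890 to 85477273) ran from 8.53 to 355 with a median of 68.4 in pEPI cells, and from 0 to 145 with a median of 35.7 in pPrE cells. Its means were 78.3 ± 69.4 (SD, n = 25) and 47.9 ± 40.1 (SD, n = 23), a log2 ratio of -0.71 (-0.74 to -0.67). The gap of Fos came largely from strips C and F (log2 ratios of -1.94 and -2.20, the last with the cell in well F3 at 355 FPKM). It was -0.28 in strip A and 0.10 to 0.14 in the other 3, and -0.28 over all cells without strip F. Fos was above Egr1 in 22 of 25 pEPI cells, while in pPrE cells 11 had more Fos and 12 more Egr1. The genes induced by dissociation, summed over a list of 16 (5 of them also among the other ERK targets), ran from 7052 to 10850 CPM, counts scaled to the library total, (median 8074) in pEPI and from 5257 to 8399 (median 6678) in pPrE cells. The chaperone genes Hspa8 and Hsp90aa1 (log2 ratios -0.19 and -0.53) held 93.8% of these counts, and without them the sum was 271 to 903 CPM (median 416) in pEPI and 233 to 865 (median 484) in pPrE cells. Of the 13 genes of this list with a mean of at least 1 FPKM, 2 (Ier3 and Gadd45b) were at least 2-fold higher in pPrE cells (6.2% of all genes). Another 2 (Jund and Nr4a1) were so in pEPI cells (9.03%). Ier3 was detected in only 3 of 25 pEPI and 7 of 23 pPrE cells and Gadd45b in 5 and 6, with medians of 0 in each branch. The pPrE cell in well D1 alone held 47.9 FPKM of Gadd45b, where the pPrE mean was 3.44. The part of dissociation in the levels of Egr1 and Fos was not tested.

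Over the 48 cells pairs of members lay above a correlation of 0.3 about as often as pairs of any genes, and below -0.3 more often. Of the 45 member pairs, 1 (2.22%) had a Spearman correlation above 0.3, Dusp4 with Spred1 (0.36), against 2.85% of all pairs of genes with a mean of at least 1 FPKM. There were 4 pairs (8.89%) below -0.3, against 2.57% of all pairs: Dusp4 with Etv5 (-0.41), Spred1 with Etv5 (-0.35), Dusp4 with Fos (-0.34) and Spred2 with Egr1 (-0.31). The median over the 45 pairs was -0.02 (0.0 over all pairs). The values of a cell share its library and depth, and the correlation of a member with the total count ranged from -0.26 for Spry4 to 0.13.

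Much of this followed the split. With the branch means removed, Dusp4 with Etv5 stood at 0.10 and Dusp4 with Spred1 at 0.12, no pair lay below -0.3 (2.42% of all gene pairs did), and 1 pair lay above 0.3, Spred1 with Etv4 (0.33, both detected in 8 cells), against 2.69% of all pairs. Spred1 with Etv5 stood at -0.09 and Dusp4 with Fos at -0.12. In contrast, Spred2 with Egr1 moved only from -0.31 to -0.29, just inside the cutoff, and so did not follow the split. Within pEPI cells 3 of 45 pairs passed 0.3 (8.04% of all gene pairs), and within pPrE cells 4 (9.1%). Egr1 with Fos stood at 0.03 in all cells. Dusp6 with Etv5, both textbook FGF targets, stood at 0.26 in all cells, at 0.70 in the 19 cells without Y-linked counts and at 0.00 in the 29 with them. Over all 48 cells it stood at 0.12 in each branch alone and at 0.13 with the branch means removed. These last values were not computed for the 19 cells alone. Both genes were higher in pEPI cells among the 19 cells (log2 ratios -1.42 and -1.68) and also among the 29 (-0.78 and -1.71). The 19 cells had 9 pairs above 0.3 (11.8% of all gene pairs there) and 7 below -0.3 (11.2%), with a median of -0.05. The 29 cells had 0 above (6.43%) and 5 below (6.07%), with a median of 0.0, and the difference between the kinds of cells was not tested.

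**Figure D3:**
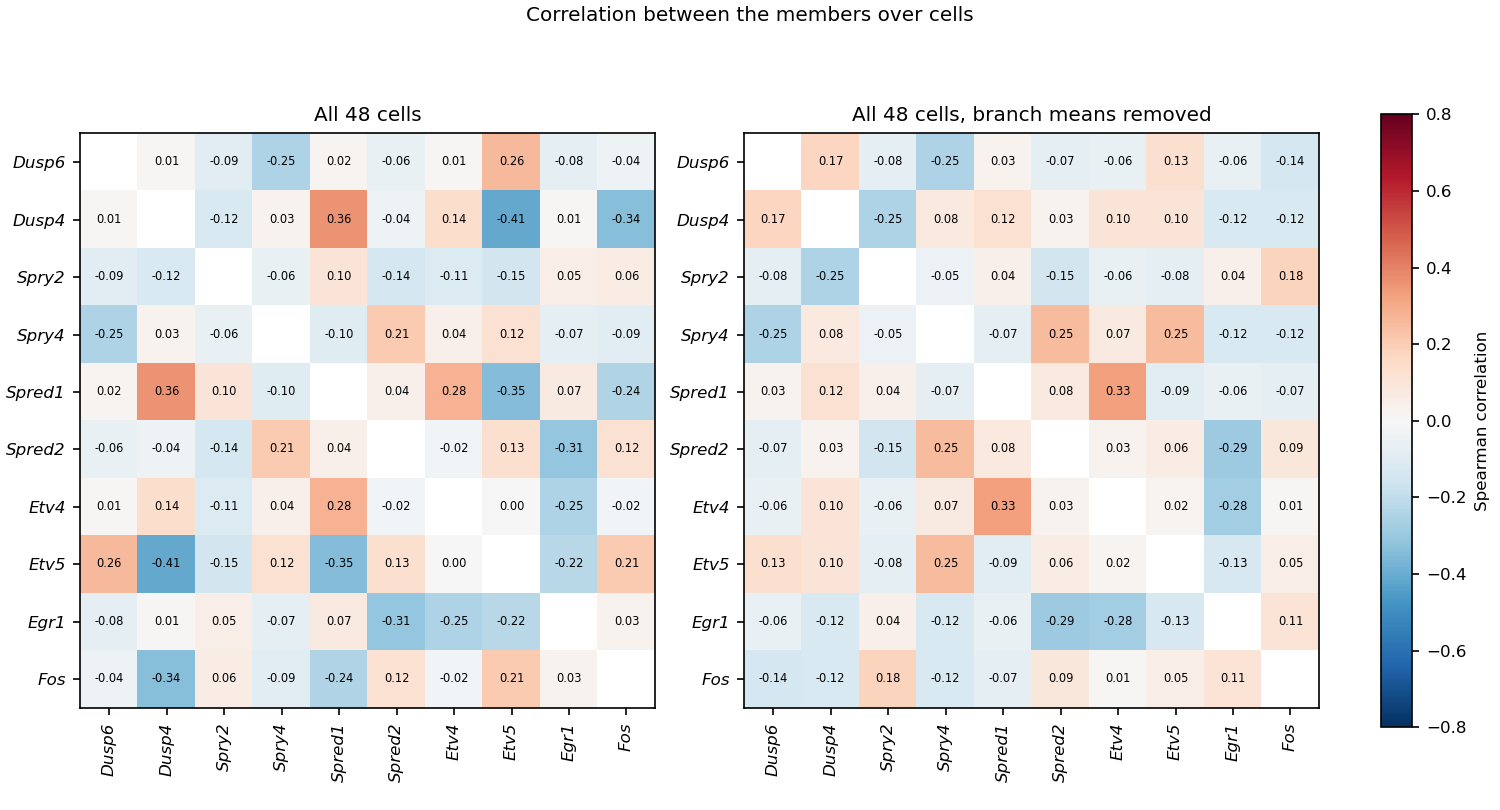
Spearman correlation between the 10 members over 48 cells, before (left) and after (right) the mean of each branch was removed. The negative values of Dusp4 and Spred1 with Etv5 in the left panel, -0.41 and -0.35, are near 0 in the right panel.

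Set against lineage genes over the 48 cells, Etv5 and Dusp4 again lay on opposite sides. The correlation of Etv5 was 0.76 with Nanog and 0.64 with Fgf4, the ligand made by epiblast precursors, and -0.69 with Fgfr2 and -0.67 with Pdgfra, receptors of the primitive endoderm. With the branch means removed these were 0.54, 0.44, -0.42 and -0.48. The correlation with other lineage genes shrank further, from -0.59 to -0.17 for Sox17, from -0.41 to -0.13 for Gata6 and from 0.65 to 0.22 for Klf2, an epiblast factor. The correlation of Dusp4 was 0.69 with Sox17, a primitive endoderm transcription factor, 0.67 with Gata6 and -0.68 with Nanog, and 0.42, 0.28 and -0.27 without the branch means. With Fgfr2, Pdgfra and Fgf4 it was 0.53, 0.52 and -0.44, and 0.03, 0.05 and -0.01 without the branch means. Dusp6, in contrast, had a correlation of 0.12 with Nanog and 0.04 with Fgf4. Fos had 0.43 with Fgf4 and -0.43 with Sox17, and Egr1 had 0.38 with the immediate early gene Ier2. These embryos hold the GFP cassette on a single Pdgfra allele, so Pdgfra is not an untouched readout.

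**Figure D4:**
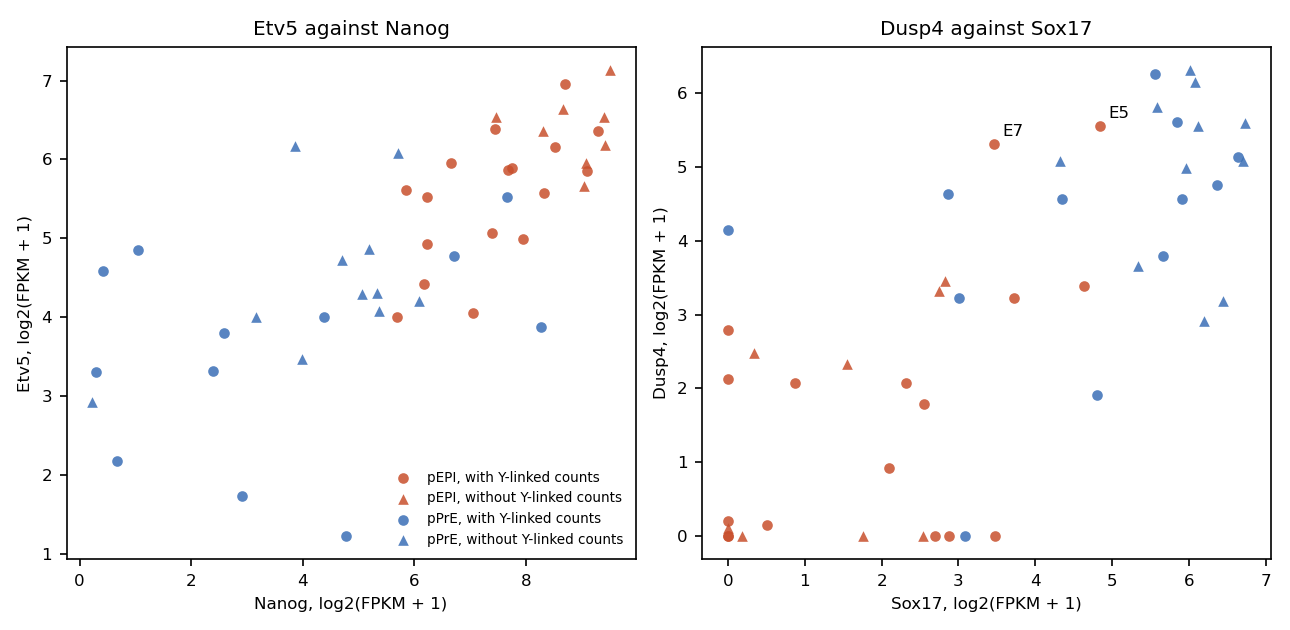
Etv5 against Nanog (left) and Dusp4 against Sox17 (right) in 48 cells, as log2(FPKM + 1), coloured by branch and shaped by whether the cell held Y-linked counts. Etv5 was higher in cells with more Nanog (correlation 0.76) and Dusp4 in cells with more Sox17 (correlation 0.69), and the pEPI cells in wells E5 and E7 lie among the pPrE cells for Dusp4.

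The genes most like each member were taken from 5924 genes that are not members, with a mean of at least 5 FPKM and counts in at least 24 cells. For Etv5 they were Hdac1 (0.77), a histone deacetylase, Zfp57 (0.77), a zinc finger protein of imprinted loci, and Nanog (0.76). For Dusp4 they were Sox17, Flrt3, a membrane protein known from FGF signalling, and Gpat3, an enzyme of lipid synthesis, at 0.69 each. For Dusp6 they were Pim3 (0.58), a kinase, Tada1 (0.48) and Wasl (0.48). The top correlation for the other eligible members was 0.57 for Spry2 (Acad8), 0.56 for Egr1 (Yipf3), 0.54 for Fos (Btrc), 0.52 for Spry4 (Nkap) and 0.49 for Spred2 (Cbr3). Spred1 and Etv4 were counted in too few cells for this. Each correlation is the highest among 5924 and is given as a description.

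The rest of the pathway was described from lists by role. Of 8 ligands and receptors with a mean of at least 1 FPKM (of 13 listed), 3 were at least 2-fold higher in pPrE cells, against 6.2% of all genes. In pEPI cells 1 was, against 9.03% of all genes, and the median log2 ratio was 0.60. Fgf4 had a mean of 29.4 ± 31.6 in pEPI and 2.11 ± 4.21 FPKM in pPrE cells. Fgfr2 went the other way, detected in 9 pEPI cells and in all 23 pPrE cells, and its means were 1.01 ± 2.16 and 9.85 ± 6.41 FPKM. Fgfr3 (log2 ratio 5.63) and Pdgfra (1.47) were the other 2 receptors higher in pPrE cells, though well A6 held 95.9% of the pEPI counts of Fgfr3 and the other pEPI cells held 2 counts in all. Fgfr1 was at 6.42 ± 3.81 and 7.81 ± 6.53 FPKM.

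Of 16 adaptors and cascade kinases between receptor and nucleus (of 23 listed), 14 lay within 2-fold, as did 9223 of all 10880 genes. The other 2 were at least 2-fold higher in pPrE cells, against 6.2% of all genes: Mapk3, which encodes ERK1 (log2 ratio 1.40), and Rasa1, a RAS GTPase-activating protein (1.06). In pEPI cells 0 were, against 9.03% of all genes. The MEK gene Map2k1 had 0.02, and the median was 0.14. Of the 6 nuclear factors (of 9 listed) 0 passed 2-fold in either direction, against the same shares of all genes, with a median of 0.50. Cic, which encodes Capicua, was at 1.21 ± 1.42 in pEPI and 1.40 ± 1.31 FPKM in pPrE cells.

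Among 11 other ERK targets (of 22 listed), 4 were at least 2-fold higher in pPrE cells (6.2% of all genes) and 1 in pEPI cells (9.03%). Their median log2 ratio was 0.09, the same as for the members. The 4 were Dusp9 (log2 ratio 2.69), another ERK phosphatase, Phlda1 (1.85), Ier3 (1.49) and Il17rd (1.14), which encodes the FGF receptor antagonist SEF, and the 1 was Myc (-1.37). Ier3 was counted in only 10 of the 48 cells, with a median of 0 in each branch. Il17rd reached a mean of 1 FPKM only through pPrE cells (1.93 FPKM, against 0.874 in pEPI cells). Dusp4 and Dusp9 had a correlation of 0.36 over the 48 cells, while Etv5 and Dusp9 had -0.42, and without the branch means these were 0.10 and -0.12. Dusp1, Dusp5, Jun, Junb, Ier2 and Spry1 lay within 2-fold.

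**Figure D5:**
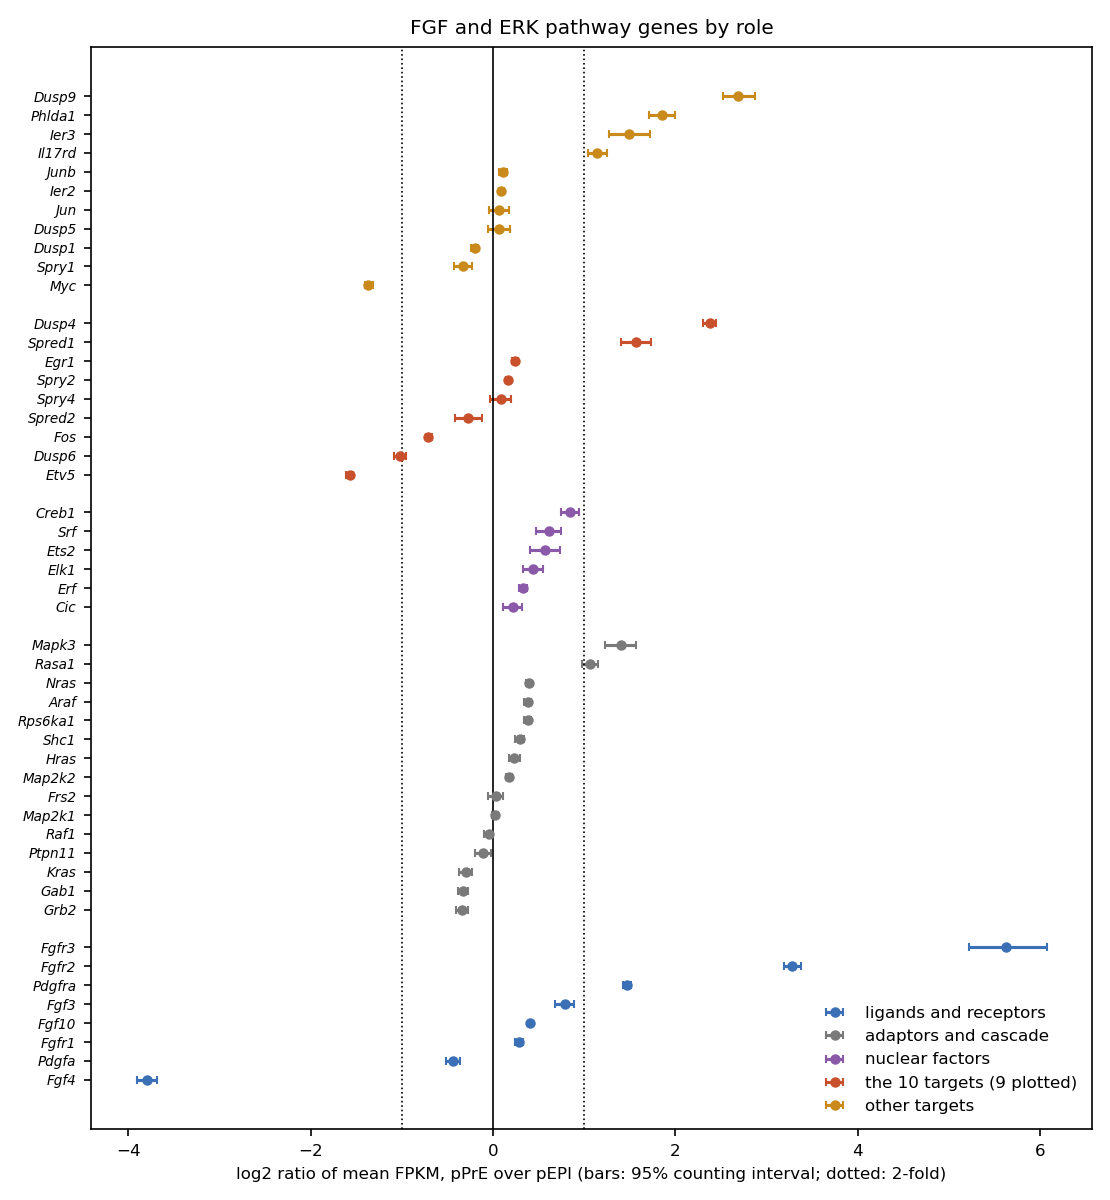
Log2 ratio of mean FPKM in pPrE over pEPI cells for genes of each role with a mean of at least 1 FPKM, with 95% counting intervals (Etv4, at 0.745 FPKM, is left out). The receptors Fgfr2 and Fgfr3 and the ligand Fgf4 lie furthest from 0, and the targets lie on both sides.

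The trophectoderm, which immunosurgery should remove, was checked by 8 markers. All 8 had counts, 3 (Eomes, Krt8 and Krt18) had a mean of at least 1 FPKM, and Cdx2 was counted in 3 cells. Their summed level was 11.1 to 351 CPM (median 75.5) in pEPI and 0.504 to 218 (median 78.8) in pPrE cells. Krt8 held 77.2% of these counts, and without it the sum was 0 to 69.7 CPM (median 13.8) in pEPI and 0 to 78.1 (median 13.2) in pPrE cells. Krt18 was 2.25-fold higher in pEPI cells by mean FPKM, and Gata3, with a mean under 1 FPKM and counts in 9 cells, was 6.17-fold higher in pPrE cells. The part of trophectoderm RNA in the members' levels was not tested.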

How the data were processed

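Single cells were sequenced by Smart-seq2 and, per the labels and the study's methods, the authors aligned reads to mm10 and counted them on genes (STAR and HTSeq are named in the submitters' processing notes). The deposited values are raw counts without normalization, 1718970 to 7342785 per cell, and no 2 cells held identical counts. 1 gene of the cascade list is not reported here. Each cell had its own well, and no doublet caller was run. From these, FPKM was computed with the union of exons in GENCODE M21 (GRCm38) and library sizes by the median of ratios. Cells were grouped by the dendrogram of the study, read by eye.

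A gene was called higher at 2-fold or more by the ratio of mean FPKM, among 10880 genes with a mean of at least 1 FPKM. Correlations are Spearman's. The exact interval of the ratio of summed counts (95%) gives the width of the counting interval, which is placed around the ratio of means. The cells are 1 sample, so no p-value was computed. The named genes are the 10 members, genes of lists by role, and for each member in at least 24 cells the 3 genes with the highest correlation. The members and lists were chosen with earlier results of these data known. Alternatives covered library size, summed CPM, log2(FPKM + 1) with a pseudocount of 1, thinning to 1718647 counts, Pearson correlation, detection at 5 CPM, Ward clusters or PC1 on 3499 variable genes without the listed genes, Y-linked counts, and leaving out each strip. The steps were tested on simulated data. Software versions were matplotlib 3.10.9, scipy 1.17.1, pandas 2.3.3, numpy 2.4.6 and Python 3.11.15.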

Additional observations from a re-analysis of the deposited data

How the results depend on the processing

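The log2 ratios of Dusp4 (1.77 to 3.84) and Etv5 (-1.92 to -1.39) stayed past 2-fold under the 14 alternatives run for each, and that of Spred1 (0.72 to 2.43) in 13. The count of members at least 2-fold higher in pEPI cells, 2, became 1 with summed CPM, with Ward clusters (16 and 32 cells) or the sign of PC1 (23 and 25 cells) in place of the branches, in cells with Y-linked counts, and without strip D or strip E, Dusp6 being the gene lost. The count higher in pPrE cells, 2, became 3 in cells without Y-linked counts, with Etv4 (1.93) added. In those cells Etv4 had a mean of 0.993 FPKM, under the minimum of 1 FPKM used for the main count. This rise thus came from counting Etv4 without that minimum. The count higher in pPrE cells became 1 by the difference of mean log2(FPKM + 1), with Spred1 lost. By that measure the 2 members higher in pEPI cells were Etv5 and Fos (-1.77 and -1.10), not Dusp6 (-0.53). The single pair above 0.3 became 2 by Pearson correlation and without strip A, C, D or F, 3 without strip E, 0 in cells with Y-linked counts and 9 in those without. After removal of the branch means, the 1 pair became 0 with the total count as library size, with thinning and without strip D, 2 by Pearson correlation and without strip B or F, 3 without strip A and 6 in cells without Y-linked counts. Of all genes, 15.2% were at least 2-fold apart, 42.4% without a filter on low values and 7.99% at a mean of at least 5 FPKM. Leaving out each cell in turn and leaving out wells E5 and E7 were chosen after seeing the data. Over single cells left out, the 2 counts of members ranged from 1 to 2 (pEPI) and 2 to 3 (pPrE), and the pairs from 1 to 2 and, with branch means removed, from 0 to 2. The pPrE count of 3 without well B4 again included Etv4 (log2 ratio 1.1), whose mean over all cells was 0.745 FPKM. Without E5 and E7, the pEPI count was 1 and the pairs with branch means removed 0. At 5 CPM, Spred2 was detected in 21 cells (41 at 1 count) and Etv4 in 7 (14), as both are low. Sums without Hspa8, Hsp90aa1 or Krt8, and Fgfr3 without well A6, were also chosen after seeing the data. The causes were not tested.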
